A study of Rattus norvegicus with 19 samples.

Results

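The heat shock chaperones described here are 10 genes that were taken from the count tables by symbol, namely *Hspa1b*, *Hspb1*, *Dnajb1*, *Hsph1*, *Hspa8*, *Hsp90aa1*, *Hsp90ab1*, *Hspa5*, *Hspd1* and *Hspe1*. They are 10 of the 32623 genes in each table, and all 10 were among the 15440 genes that passed the filter on low counts and were tested. RNA was sequenced from the hippocampus of male Sprague Dawley rats, an outbred stock, in which the *Sult1a1*-*Spn* segment of rat chromosome 1, the counterpart of human 16p11.2, had been deleted or duplicated with CRISPR/Cas9. The 19 libraries came from 6 wild-type (wt) rats with 2 copies of the segment, 4 Del/+ rats with 1 copy, 5 Dup/+ rats with 3 copies, and 4 Del/Dup rats that carry a deleted and a duplicated chromosome and hence 2 copies. The rats were littermates and adults, but the age of those used for RNA was not given in the sources used here.

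Heat shock proteins are molecular chaperones: they bind unfolded or partly folded proteins, help them to fold, and keep them from aggregating. In the cytosol, proteins of the HSP70 family bind and release clients in a cycle of ATP hydrolysis that J-domain proteins (HSP40) start and HSP110 proteins, as exchange factors, reset, while HSP90 acts late on kinases, steroid receptors and other clients. Unfolded protein in the cytosol frees heat shock factor 1, which binds heat shock elements before the stress-inducible genes, whereas unfolded protein in the endoplasmic reticulum acts through the unfolded protein response and its own promoter element. Neurons express the constitutive chaperones at high levels and are known to induce *Hspa1b* less readily than glia.

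The promoters of the members show both kinds of element. RefSeq promoter sequences (assembly GRCr8, which is not the assembly of the counts) were held for 8 of the 10 members, and the 250 bases before each start were searched. The motifs were the heat shock element GAANNTTC or TTCNNGAA, its form with 3 units, in which GAA and TTC alternate with 2 bases between them and which contains the shorter one, and the endoplasmic reticulum stress element, CCAAT and CCACG with 9 bases between them, each on both strands. Of the 8 promoters, 6 held the shorter heat shock element, as did 13.5% of the 33465 promoters of the same length, and 4 held the form with 3 units, as did 0.663% of all. The stress element of the endoplasmic reticulum was found in *Hspa5* alone among the 8, and in 0.0657% of all promoters. Of the 26 other genes of a list for the endoplasmic reticulum and its unfolded protein response, 21 had a promoter sequence and 6 of these held the stress element (*Hsp90b1*, *Dnajc3*, *Calr*, *Canx*, *Creld2* and *Xbp1*), so that most did not. The sequences below are examples of promoters that hold the heat shock element with 3 units or the stress element, and capitals mark the fixed letters of the motifs.

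Hsph1, chr12:10427118-10427367 (plus strand): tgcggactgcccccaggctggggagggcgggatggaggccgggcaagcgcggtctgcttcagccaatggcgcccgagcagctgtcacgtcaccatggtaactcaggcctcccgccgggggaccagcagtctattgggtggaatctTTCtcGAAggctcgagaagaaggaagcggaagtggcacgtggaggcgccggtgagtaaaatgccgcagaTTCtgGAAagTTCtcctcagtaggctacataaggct

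Hspa8, chr8:50080264-50080513 (plus strand): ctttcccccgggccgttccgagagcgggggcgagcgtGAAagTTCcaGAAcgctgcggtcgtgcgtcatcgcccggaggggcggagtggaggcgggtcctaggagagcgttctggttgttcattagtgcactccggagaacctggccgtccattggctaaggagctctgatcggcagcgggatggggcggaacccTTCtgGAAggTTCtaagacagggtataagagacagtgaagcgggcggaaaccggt

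Hspd1, chr9:64084038-64084287 (minus strand): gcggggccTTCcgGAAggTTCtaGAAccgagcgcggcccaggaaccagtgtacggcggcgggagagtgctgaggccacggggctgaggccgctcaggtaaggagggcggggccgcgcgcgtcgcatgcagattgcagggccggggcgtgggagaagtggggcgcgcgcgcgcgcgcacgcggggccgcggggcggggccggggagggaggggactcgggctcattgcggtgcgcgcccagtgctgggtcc

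Hspa5, chr3:38452766-38453015 (plus strand): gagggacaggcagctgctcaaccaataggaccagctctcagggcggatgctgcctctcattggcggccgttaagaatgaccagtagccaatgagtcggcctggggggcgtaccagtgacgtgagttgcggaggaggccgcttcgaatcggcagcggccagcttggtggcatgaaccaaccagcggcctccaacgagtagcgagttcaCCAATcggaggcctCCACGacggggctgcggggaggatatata

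Hsp90b1, chr7:23012294-23012543 (minus strand): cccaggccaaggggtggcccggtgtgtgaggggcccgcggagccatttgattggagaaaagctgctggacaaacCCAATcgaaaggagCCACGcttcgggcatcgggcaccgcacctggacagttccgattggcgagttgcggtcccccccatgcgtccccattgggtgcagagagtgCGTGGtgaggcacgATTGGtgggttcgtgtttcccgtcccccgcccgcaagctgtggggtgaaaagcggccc

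Calr, chr19:40213117-40213366 (plus strand): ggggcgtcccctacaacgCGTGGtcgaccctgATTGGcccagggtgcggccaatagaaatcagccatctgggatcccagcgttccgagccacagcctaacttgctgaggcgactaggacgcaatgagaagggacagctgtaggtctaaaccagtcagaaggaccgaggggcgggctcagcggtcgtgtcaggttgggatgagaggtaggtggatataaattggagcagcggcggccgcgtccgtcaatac

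*Hspd1* and *Hspe1*, the mitochondrial pair, start head to head, so that the run of 4 repeated units near the 5′ end of the *Hspd1* window is the one that lies 65 bases before the start of *Hspe1* on the other strand. *Hspa8* held 2 matches with 3 units, the nearer of them 55 bases before the start, and *Hsph1* held 1, at 36 bases. In *Hspa5* the stress element began 43 bases before the start. *Hsp90b1*, which encodes the HSP90 of the reticulum and is no member, held 2 stress elements on opposite strands, and *Calr* (calreticulin) held 1. *Hsp90ab1* held none of these motifs in its window. These matches are descriptions of the letters in the window, not measured binding sites.

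The libraries held between 16191192 and 38760645 reads assigned to genes. The multi-mapped share, that of reads aligning to several places in the genome, differed between groups, with 44.4% ± 2.82 (SD, n = 6) in wt, 63.7% ± 15.7 (n = 4) in Del/+, 48.0% ± 2.11 (n = 5) in Dup/+ and 64.3% ± 6.39 (n = 4) in Del/Dup. All Del/Dup libraries lay above all wt libraries in this share, so for Del/Dup against wt no comparison within libraries of like share was possible and that share and the genotype cannot be told apart. Del/+ replicates 1 to 3 (63.9% to 76.3%) also lay above the wt range of 40.1% to 47.6%. A comparison of Del/+ with wt at like share would rest on Del/+ replicate 4 (41.6%) alone. Del/Dup libraries also held fewer assigned reads (19464204 to 25480872) than any wt library (25642772 or more), so depth and that genotype cannot be told apart either. The median level of 20 genes of the interval, relative to their wt mean, lay between 0.466 and 0.529 for the Del/+ libraries and between 1.42 and 1.51 for those of Dup/+. The corresponding limits were 0.968 and 1.02 in wt, and 0.962 and 1.02 in Del/Dup, so the libraries followed the copy number of their labels. For wt replicate 5 the 2 label fields disagreed (wt and Dup/+), and it was counted as wt. It is among the 6 wt libraries at 0.968 to 1.02 for the interval genes, below every Dup/+ library, so its level was that of 2 copies. The unit of each level is CPM, the counts-per-million value of a gene after the library sizes were scaled by TMM. Hippocampal neuron markers summed to between 3721 and 4629 CPM in the 19 libraries. Choroid plexus markers, summed, spanned 4.15 to 34.1 CPM in wt and 41.1 to 1179 CPM in Del/Dup. The span was 6.73 to 1223 CPM for Del/+ and 7.43 to 393 CPM for Dup/+. Blood markers summed to 180 to 243 CPM in Dup/+, wholly above the 117 to 159 CPM of wt, with 103 to 162 in Del/+ and 132 to 164 in Del/Dup. Oligodendrocyte markers had a mean of 6424 CPM in Del/+, 5520 in Dup/+ and 5882 in Del/Dup against 5084 in wt, and the spans overlapped. *Otx2* of the choroid plexus list and *Cldn5* of the vascular list were at 0 reads in all libraries.

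The first question was whether the number of copies of the interval changed the level of the chaperones. No member passed the threshold in any comparison: by the quasi-likelihood test of edgeR with Benjamini-Hochberg adjustment, 0 of 10 members had an adjusted p under 0.05 in Del/+ against wt, against 0.771% of all genes tested. The counts were likewise 0 of 10 in Dup/+ against wt (0.272% of all genes), in Del/Dup against wt (0.0842%), in Del/+ against Dup/+ (0.732%), and in the test of any difference among the 4 groups (0.848%). DESeq2 also called 0 in each of these 5 tests, but gave no adjusted p for 4 members in Del/+ against wt. At an unadjusted p under 0.05, edgeR gave 1 member in Del/+ (18% of all genes), 1 in Dup/+ (8.87%), 4 in Del/Dup (15.9%), 0 in Del/+ against Dup/+ (13.1%) and 1 among the 4 groups (18.3%), and DESeq2 gave 1, 1, 4, 0 and 3 (18.4%, 8.71%, 16%, 13.2% and 20.2% of all genes). Members whose libraries all lay on 1 side of the other group were also counted. In Del/+ against wt 0 members lay wholly below (2.7% of all genes) and 0 wholly above (2.23%), and in Dup/+ against wt 0 (0.499%) and 0 (0.674%). In Del/Dup against wt 1 lay wholly below (1.22%) and 0 above (1.33%), and in Del/+ against Dup/+ 0 below (2.97%) and 0 above (2.33%). The median log2 fold change over the members was -0.06 in Del/+, -0.01 in Dup/+ and -0.04 in Del/Dup, beside a median of 0.00 over all genes tested in each. The comparisons with wt share the 6 wt libraries, so their values are not independent of each other.

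**Figure D1:**
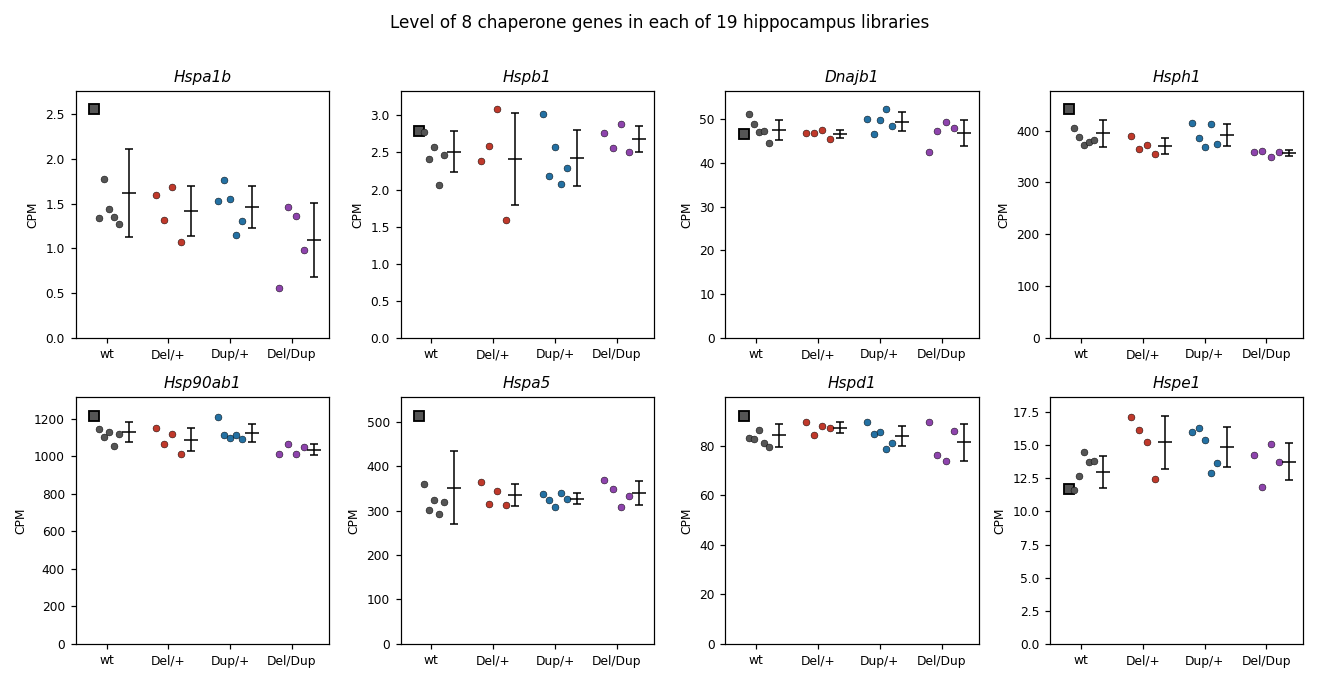
Level of 8 members in CPM (vertical axes, each from 0) in each of the 19 libraries, grouped by genotype. Points are libraries, the square is wt replicate 1, and the bar beside each group is the mean with its SD (n = 6, 4, 5 and 4); wt replicate 1 lies at the top for *Hspa1b*, *Hsph1*, *Hsp90ab1*, *Hspa5* and *Hspd1*, with 514 CPM for *Hspa5*, while in the 4 comparisons made the groups overlap in all panels except *Hsph1* in Del/Dup against wt. The Del/Dup libraries also lie below those of Dup/+ for *Hsph1* and *Hsp90ab1*. That pair of groups was not tested, and the share of all genes that lie apart in it was not counted, so this is a description only.

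The members of the cytosolic HSP70 machine, the HSP70 proteins with their J-domain partner and exchange factor, were taken first. *Hspa1b* (ENSRNOG00000050647) encodes the stress-inducible HSP70 and was counted at 12 to 96 reads per library. Its level in wt ran from a lowest value of 1.27 CPM over a median of 1.39 to a highest of 2.55. In Del/+ it was 1.59, 1.31, 1.68 and 1.07 CPM in replicates 1 to 4, and in Dup/+ 1.53, 1.77, 1.55, 1.15 and 1.31 in replicates 1 to 5. Del/Dup replicates 2 to 5 had 0.561, 1.47, 1.36 and 0.980 CPM. Of these, replicates 2 and 5 lay below every wt library and replicates 3 and 4 within the wt range. The highest wt value was that of wt replicate 1. The log2 fold change of Del/Dup against wt was -0.58 (95% interval -1.09 to -0.07), with adjusted p = 0.263 by edgeR. Without Del/Dup replicate 2, the lowest library, it was -0.37, a move of more than 1.5 times. Leaving out 1 library at a time gave -0.73 to -0.37, and the multi-mapped share as covariate gave -0.92. Deviations of *Hspa1b* from the group means had an r of 0.36 with that share. Within groups *Hspa1b* had an r of -0.56 with the oligodendrocyte markers over the 19 libraries, and their part in the difference was not tested.

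*Dnajb1* (ENSRNOG00000021824), a J-domain protein that hands clients to HSP70, was among the steadiest members, with 42.5 to 52.2 CPM over all 19 libraries. Its group means were 47.6 ± 2.29 CPM in wt, 46.6 ± 0.875 in Del/+, 49.4 ± 2.06 in Dup/+ and 46.7 ± 2.98 in Del/Dup (SD, n = 6, 4, 5 and 4). Its groups overlapped in each comparison, and against wt the log2 fold change had an interval of -0.12 to 0.07 both for Del/+ and for Del/Dup, and of -0.04 to 0.15 for Dup/+.

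*Hsph1* (ENSRNOG00000000902) encodes HSP110, the exchange factor of HSP70, and was the member that came nearest to a difference between groups. In wt it had a lowest value of 371.4 CPM, a median of 385.1 and a highest of 440.7. The Del/Dup replicates 2 to 5 had 359.5, 359.9, 349.2 and 358.5 CPM, all below every wt library. This was 1 of 10 members with no overlap in that direction in Del/Dup against wt, a pattern that 1.22% of all genes tested showed. The log2 fold change was -0.14 (95% interval -0.25 to -0.04), or a fold of 0.905, with adjusted p = 0.193 by edgeR. In the alternatives that left out no library it ran from -0.17 to -0.12, with a lowest adjusted p of 0.109, by DESeq2. Leaving out 1 library at a time gave -0.16 to -0.10, the latter without wt replicate 1. Del/+ replicates had 389.5, 363.6, 371.7 and 354.3 CPM and Dup/+ replicates 413.9, 384.8, 367.9, 413.5 and 374.9, so both overlapped wt. The summed neuron markers spanned 3970 to 4629 CPM in wt and 3750 to 4128 CPM in Del/Dup, and within groups *Hsph1* had an r of 0.78 with them over the 19 libraries. With the log2 of assigned reads its r was 0.41. The part of neuron content or of depth in the lower *Hsph1* of Del/Dup was not tested.

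*Hspa8* (ENSRNOG00000034066) encodes the constitutive HSP70 of the cytosol, an abundant protein of neurons that also uncoats clathrin vesicles. Its row was counted at only 11 to 33 reads in 12 libraries, at 113 and 130 reads in Del/+ replicate 3 and wt replicate 4, and at 279 to 519 reads in the other 5. Those 5 were wt replicate 6, Dup/+ replicate 5 and Del/Dup replicates 2, 4 and 5. In CPM, Del/Dup replicates had 24.3, 0.837, 14.3 and 18.5, against a wt range of 0.585 to 11.1 with a median of 0.887. 3 of the 4 Del/Dup libraries thus lay above wt and the other within it. The log2 fold change was 2.28 (95% interval 0.07 to 4.48), with adjusted p = 0.304 by edgeR. Without wt replicate 6 it was 3.29. The summed choroid plexus markers given above also lay higher in Del/Dup than in wt, and the part of those cells in the result was not tested.

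**Figure D2:**
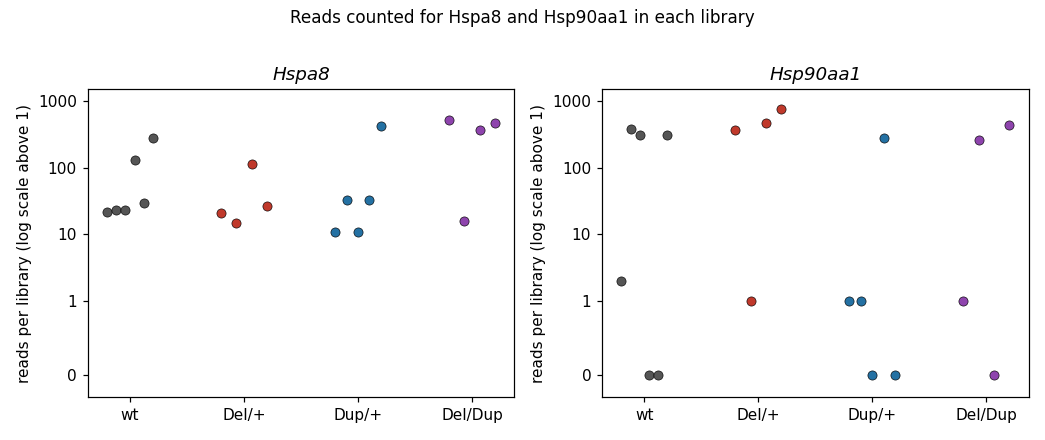
Reads counted per library for *Hspa8* and *Hsp90aa1* (vertical axis, linear from 0 to 1 and logarithmic above) by genotype group, 1 point per library. *Hsp90aa1* had 0 to 2 reads in 10 libraries and 259 to 753 in 9, with libraries of every genotype in both sets.

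*Hsp90aa1* (ENSRNOG00000059714) encodes the stress-inducible HSP90 and fell into separate levels. It was counted at 0 to 2 reads in 10 libraries and at 259 to 753 reads in the other 9. The high libraries were 3 of 6 in wt, 3 of 4 in Del/+, 1 of 5 in Dup/+ and 2 of 4 in Del/Dup. Among all 32623 rows, only 1, this one, had at least 5 libraries at 2 reads or fewer and at least 5 at 250 reads or more; this search was made after its values had been seen. The log2 fold changes had wide intervals, for instance 0.96 (-2.07 to 3.99) in Del/+ and -1.37 (-4.71 to 1.96) in Dup/+ against wt, with adjusted p = 0.770 and 0.859 by edgeR.

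The counts of *Hspa8* and *Hsp90aa1* have to be read as uncertain. Multi-mapped reads were not assigned to genes, and the RefSeq table for GRCr8 names 33 pseudogenes of *Hspa8*, 23 of *Hsp90ab1*, 20 of *Hspd1*, 16 of *Hsp90aa1* and 1 of *Hspe1*, and 0 of the other 5 members. No row of the count tables carries such a pseudogene name. How many reads each copy took from each gene was not tested, and no r of either gene with another is given since their libraries fall into separate levels. *Hspa1a*, another gene of the cytosolic HSP70 list, had no row in the count tables, and whether it shared reads with *Hspa1b* was not tested.

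*Hsp90ab1* (ENSRNOG00000019834), the constitutive HSP90, had a lowest wt value of 1058 CPM, a median of 1126 and a highest of 1218. Del/Dup replicates 2 to 5 had 1015, 1068, 1012 and 1052 CPM, and only replicate 3 lay within the wt range. The log2 fold change of Del/Dup against wt was -0.12 (95% interval -0.22 to -0.03), with adjusted p = 0.220 by edgeR. Without wt replicate 1 it was -0.09. Del/+ had 1154, 1068, 1122 and 1011 CPM and Dup/+ 1209, 1117, 1100, 1112 and 1093, both across the wt range. In Dup/+ against wt the difference was 0.00 on the log2 scale, with an interval of -0.09 to 0.08. Within groups *Hsp90ab1* had an r of 0.60 with the neuron markers, -0.43 with the oligodendrocyte markers and -0.41 with the blood markers over the 19 libraries, and their part in its group differences was not tested.

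*Hspb1* (ENSRNOG00000023546) encodes HSP27, a small heat shock protein that holds unfolded clients without ATP. It was counted at 43 to 117 reads and its means were 2.51 ± 0.272 CPM in wt, 2.41 ± 0.622 in Del/+, 2.43 ± 0.375 in Dup/+ and 2.68 ± 0.173 in Del/Dup (SD, n = 6, 4, 5 and 4). The groups overlapped throughout. Within groups its deviations had an r of -0.74 with the summed blood markers over the 19 libraries and of 0.52 with the multi-mapped share. The part of either in its level was not tested. In a bulk sample of this kind, fewer cells that express a gene and less RNA per cell cannot be told apart.

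The mitochondrial chaperonin is made of HSP60 rings (*Hspd1*, ENSRNOG00000014525) and their HSP10 lids (*Hspe1*, ENSRNOG00000051624), transcribed in opposite directions from the promoter printed above. *Hspd1* had a lowest wt value of 79.5 CPM, a median of 83.1 and a highest of 92.2, and no carrier group stood apart, the Del/+ libraries lying at 84.4 to 89.6 CPM, those of Dup/+ at 78.9 to 89.5 and those of Del/Dup at 74.0 to 89.7. *Hspe1* had a lowest wt value of 11.6 CPM, a median of 13.2 and a highest of 14.5. Del/+ replicates had 17.1, 16.1, 15.2 and 12.4 CPM, and Dup/+ replicates 16.0, 16.3, 15.4, 12.9 and 13.7. In each of these groups, 3 libraries lay above all wt libraries and the rest within their range. Del/Dup replicates had 14.3, 11.8, 15.1 and 13.7 CPM, with only replicate 4 above wt.

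For Del/+ against wt the log2 fold change of *Hspe1* was 0.23 (95% interval 0.03 to 0.42), with adjusted p = 0.204 by edgeR. For Dup/+ it was 0.20 (0.01 to 0.38), with adjusted p = 0.537 by the same test. For Del/Dup it was 0.08 (-0.11 to 0.28), with adjusted p = 0.690 by edgeR. Del/+ against Dup/+ differed by 0.03 (-0.17 to 0.23). Within groups *Hspe1* had an r of 0.55 with the multi-mapped share, the highest of any member, and of -0.48 with the neuron, -0.43 with the microglia, -0.38 with the oligodendrocyte, -0.34 with the blood and -0.29 with the astrocyte markers. The summed microglia markers had means of 181.3 CPM in wt, 163.5 in Del/+, 168.7 in Dup/+ and 172.4 in Del/Dup. What part these cells have in the level of *Hspe1* was not tested. The value in Del/+ was 0.00 when the multi-mapped share entered the fit as a covariate, and that in Dup/+ was 0.16. Over the 19 libraries the 2 genes of the pair had an r of 0.13.

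**Figure D3:**
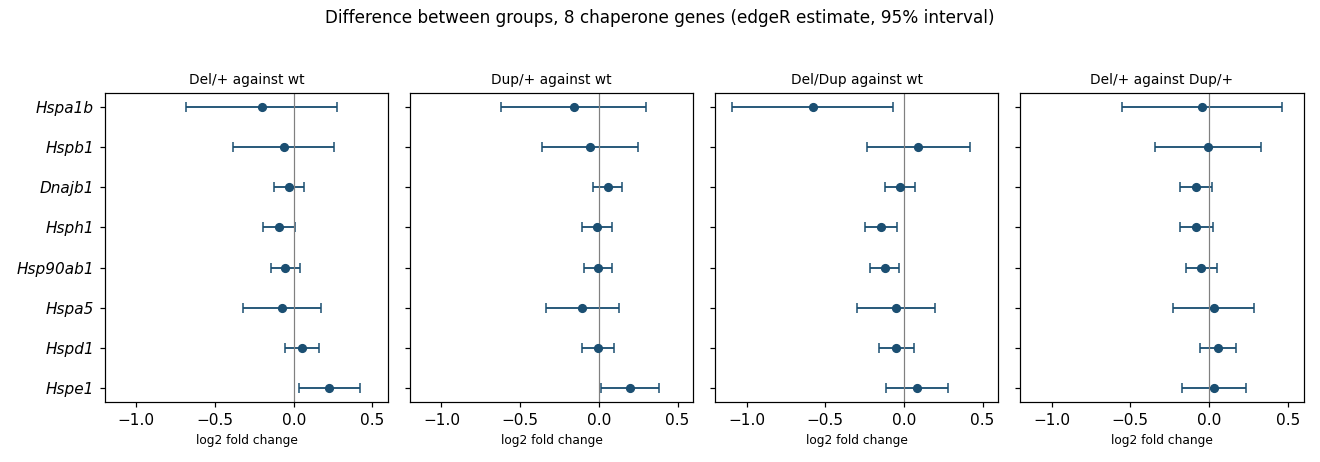
Log2 fold change (horizontal axes) of 8 members in the 4 comparisons, with the 95% interval of the edgeR estimate as the bar. The intervals of *Hspa1b*, *Hsph1* and *Hsp90ab1* lie below 0 in Del/Dup against wt and those of *Hspe1* above 0 in Del/+ and Dup/+ against wt, and no adjusted p was under 0.05.

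*Hspa5* (ENSRNOG00000018294) encodes BiP, the HSP70 of the endoplasmic reticulum and a regulator and a target of the unfolded protein response. Del/+ replicates had 364.1, 316.1, 345.2 and 311.9 CPM, Dup/+ replicates 338.2, 323.1, 309.2, 340.6 and 325.4, and Del/Dup replicates 370.0, 349.2, 308.4 and 332.3. In wt the lowest value was 292.8 CPM, the median 321.9 and the highest, in replicate 1, 514.4, so that carriers lay within the wt range throughout. The next highest wt library had 359.3 CPM, and Del/+ replicate 1 and Del/Dup replicate 2 lay above that. Against wt, Del/+ gave a log2 fold change of -0.07 (95% interval -0.32 to 0.17), Dup/+ one of -0.10 (-0.34 to 0.13) and Del/Dup one of -0.05 (-0.30 to 0.20), and the adjusted p by edgeR were 0.784, 0.840 and 0.861. Wt replicate 1 decided these signs: without it the values were 0.07, 0.04 and 0.10.

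That library was then described across the chaperone system, a choice made after its *Hspa5* value had been seen, and so with no test. Wt replicate 1 was the highest of the 19 libraries for 5 of the 10 members (*Hspa1b*, *Hsph1*, *Hspa5*, *Hsp90ab1* and *Hspd1*), while each other library was highest for at most 1. *Hspa5* was 1.61-fold above the mean of the other wt libraries, *Hspa1b* 1.78-fold, *Hsph1* 1.14-fold, *Hspd1* 1.12-fold and *Hsp90ab1* 1.10-fold. *Dnajb1* and *Hspe1* were at 0.976-fold and 0.880-fold. Of all 13624 genes with a mean of at least 1 CPM, the library was the highest for 6.50%.

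Among the 26 other genes of the endoplasmic reticulum list, wt replicate 1 was the highest library for 16, and any other library for at most 2. The median fold over these 26 genes was 1.14 against the other wt libraries. Several folding enzymes and cofactors were high there: *Sdf2l1*, a cofactor of BiP, had 8.06 CPM against 3.66 to 5.29 in the other wt libraries, *Creld2* 9.20 against 5.45 to 7.24, and the disulphide isomerase *Pdia4* 67.6 against 42.7 to 49.6. *Hsp90b1* had 557.3 CPM against 418.0 to 466.5, and *Calr*, a lectin chaperone, 631.4 against 476.5 to 533.7. *Xbp1*, the transcription factor spliced by IRE1, had 71.6 CPM against 51.6 to 58.7.

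Other genes of the same list were not high there, and *Atf4* and *Herpud1* were lower than in every other wt library. The disulphide isomerase *P4hb* had 139.1 CPM against 126.6 to 142.8 in the other wt libraries, and *Sil1*, an exchange factor of BiP, 19.2 against 15.7 to 19.6. *Atf4* and *Ddit3*, which act in the PERK branch of the unfolded protein response, had 109.4 CPM against 118.2 to 132.2 and 18.4 against 15.2 to 19.5, and *Herpud1*, which works in degradation from the reticulum, 41.4 against 42.5 to 48.5. *Ern1*, which encodes IRE1, had 19.8 CPM against 18.8 to 21.3. Of the small heat shock proteins, *Cryab* had 43.3 CPM against 23.7 to 31.1. Among the 21 HSP70 and HSP90 cochaperones the library was the highest for 5 (*Bag3*, *Stip1*, *Ahsa1*, *Chordc1* and *Fkbp4*), and any other library for at most 3. It was the highest for 1 of 18 other cytosolic HSP70, HSP110 and HSP40 genes, for 1 of 4 heat shock factor genes and for 1 of 4 other small heat shock proteins. It was the highest for 0 of 13 mitochondrial chaperones and proteases and for 0 of 8 subunits of the cytosolic chaperonin TRiC.

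The cell markers of this library lay within the range of the other wt libraries, among them 4628 CPM for neurons against 3970 to 4629, 8.46 for choroid plexus against 4.15 to 34.1, and 126 for blood against 117 to 159. Counted from the top of the 19 libraries, it ranked 2 for neuron markers and 18 for oligodendrocyte markers (4779 CPM), and the part of cell content in its levels was not tested. It was also the library with the most reads, and its multi-mapped share was 42.2%. The part of depth in its levels was not tested.

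**Figure D4:**
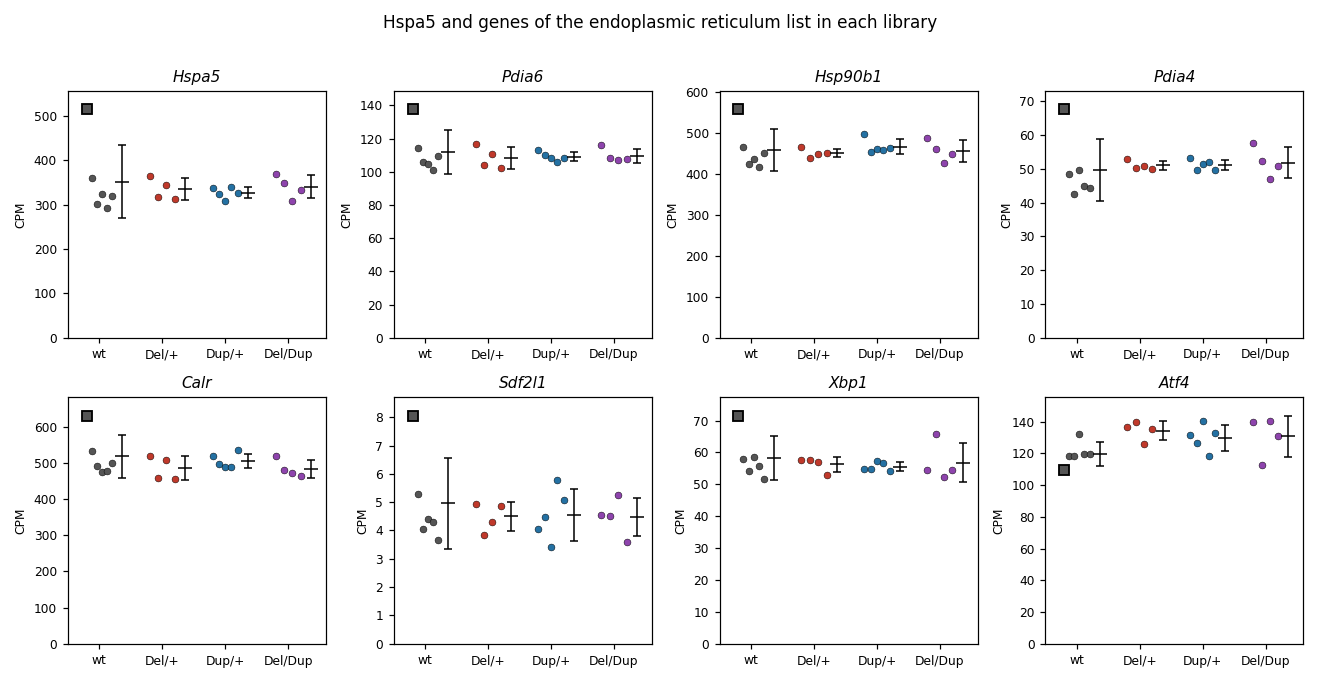
Levels in CPM (vertical axes, each from 0) of *Hspa5* and 7 genes of the endoplasmic reticulum list in each library by genotype, with mean and SD beside each group (n = 6, 4, 5 and 4). The square is wt replicate 1, which is the highest library for *Hspa5*, *Pdia6*, *Hsp90b1*, *Pdia4*, *Calr*, *Sdf2l1* and *Xbp1* but not for *Atf4*.

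Covariation of the members was described on deviations of log2 CPM from the group means, so that differences between genotypes do not enter. The points are the 19 libraries, which share depth and scaling across genes, and no test was made. Over the 45 pairs of all 10 members the median r was 0.13 and 27 pairs were positive. For the 8 members other than *Hspa8* and *Hsp90aa1*, which were set apart for their separate levels, the median r of the 28 pairs was 0.32 and 22 pairs were positive. Over all pairs of genes with a mean of at least 1 CPM the median was 0.00. Without wt replicate 1 the median of the 28 pairs was 0.29 and 20 were positive.

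The strongest pairs joined the cytosolic HSP110 and HSP90 with BiP. *Hsph1* and *Hspa5* had r = 0.82 (0.68 without wt replicate 1), *Hsph1* and *Hsp90ab1* 0.77 (0.68), and *Hspa5* and *Hsp90ab1* 0.71 (0.65). *Hspb1* and *Hsp90ab1* followed with 0.68 (0.68). The inducible *Hspa1b* had r = 0.33 with *Hspa5* over all 19 libraries and -0.24 without wt replicate 1. *Dnajb1* ran against *Hspd1* (-0.38, and -0.37 without wt replicate 1). Deviations of *Hspa5* also had r = 0.63 with the summed neuron markers over the 19 libraries, beside those of *Hsph1* and *Hsp90ab1* given above, and the part of neuron content in the covariation was not tested.

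**Figure D5:**
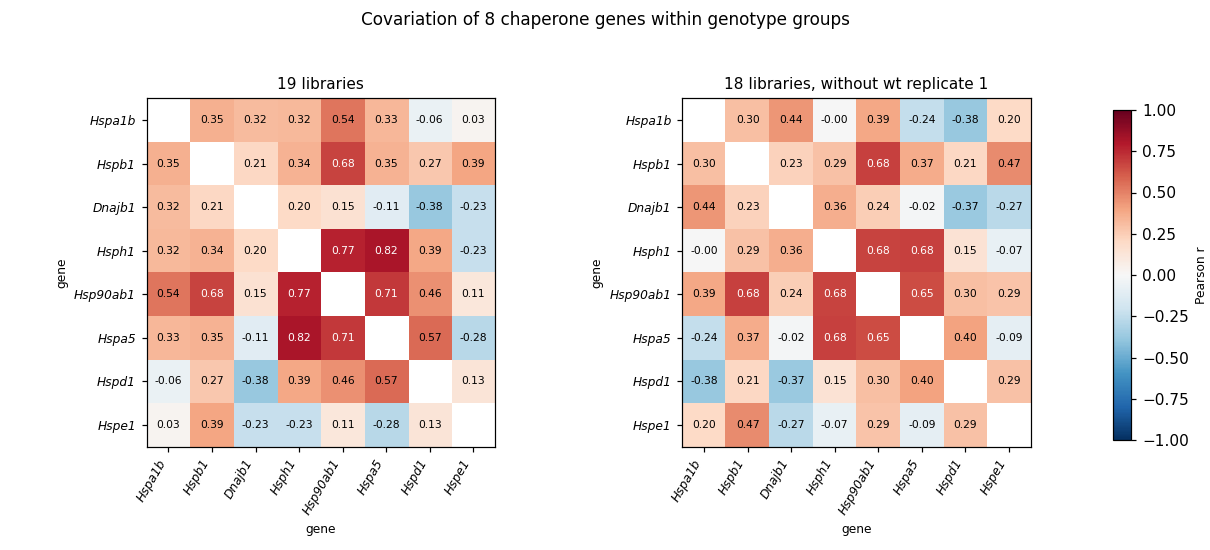
Pearson r of each pair of 8 members (rows and columns), computed on deviations of log2 CPM from group means over 19 libraries (left) and over 18 without wt replicate 1 (right), with red for positive and blue for negative r. The 3 pairs among *Hsph1*, *Hsp90ab1* and *Hspa5* have the highest r on the left, 0.71 to 0.82, and 0.65 to 0.68 on the right, where the pair of *Hspb1* and *Hsp90ab1* (0.68) lies among them.

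Of the 5 genes most like *Hspa5* across the transcriptome, 4 belonged to the endoplasmic reticulum list. Of 13623 genes compared over the 19 libraries, the highest r with *Hspa5* were those of *Pdia6* (0.95), *Hsp90b1* (0.94), *Pdia4* (0.94), *Calr* (0.91) and *P4ha1* (0.89), the last a subunit of the prolyl hydroxylase of collagen. Without wt replicate 1 these were 0.83, 0.81, 0.75, 0.77 and 0.73, and the genes ranked 2, 4, 11, 8 and 19, so that only *Pdia6* and *Hsp90b1* stayed among the first 5. The promoters of *Hsp90b1* and *Calr* are the ones printed above with the stress element, while those of *Pdia4* and *P4ha1* held no match in the same window. Over the 26 genes of the endoplasmic reticulum list the median r with *Hspa5* was 0.68, with 15 above 0.5, and without wt replicate 1 it was 0.43, with 9 above 0.5. The cytosolic *Hsph1* had a median r of 0.60 with the same genes, with 16 above 0.5, and without wt replicate 1 of 0.32, with 7 above 0.5.

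*Hspd1* and *Hspa1b* had other partners. For *Hspd1* the closest genes were *Ccpg1* (0.81), *Golph3l* (0.78), *Sec62* (0.78), *Atg12* (0.77) and *Emc7* (0.77). Without wt replicate 1 these had r of 0.76, 0.74, 0.80, 0.74 and 0.84 and ranks of 14, 29, 4, 26 and 1. The median r of *Hspd1* with the 8 TRiC subunits was 0.61, and 0.60 without wt replicate 1, against 0.11 with the 13 mitochondrial chaperones and proteases. For *Hspa1b* the closest were *Swsap1* (0.88), *Tspan33* (0.88), *Lman2l* (0.87), *Islr2* (0.84) and *Neurod1* (0.83), none of them a chaperone of the lists. Without wt replicate 1 their r were 0.85, 0.89, 0.83, 0.83 and 0.80 and their ranks 9, 1, 15, 13 and 36. With 12 to 96 reads per library, *Hspa1b* was counted at low depth.

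In the wider chaperone system, too, edgeR gave no call. The lists named 100 further genes, of which 99 were in the tables and 94 were tested: heat shock factors, other cytosolic HSP70, HSP110 and HSP40 genes, small heat shock proteins, cochaperones, the endoplasmic reticulum list, mitochondrial chaperones and proteases, and TRiC. By edgeR, 0 had an adjusted p under 0.05 in each of the 4 comparisons. DESeq2 called 4 of the 87 that it gave an adjusted p in Del/+ against wt, where it called 6.93% of the 9453 genes that it gave one. Of 94 it called 1 in Dup/+ (0.518% of all genes), 0 in Del/Dup (1.19%), 2 in Del/+ against Dup/+ (1.73%) and 5 among the 4 groups (4.57%). At an unadjusted p under 0.05 edgeR gave 19 of 94 in Del/+ against wt (11 higher and 8 lower, against 18% of all genes), 13 in Dup/+ (9 and 4, against 8.87%), 14 in Del/Dup (5 and 9, against 15.9%), and 13 in Del/+ against Dup/+ (7 and 6, against 13.1%). Their median log2 fold changes were 0.01, 0.02, -0.01 and 0.00.

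The lowest adjusted p in Del/+ against wt was that of *Hspa4l*, an HSP110 relative, at 0.0714 by edgeR and 0.00925 by DESeq2, with a log2 fold change of 0.15 ± 0.04 (SE). *Unc45a*, a cochaperone of HSP90 for myosin, had -0.14 ± 0.04 (0.0764 and 0.0181). *Fkbp5*, an HSP90 cochaperone of the glucocorticoid receptor, had -0.28 ± 0.08 (0.0916 and 0.0257). In Dup/+ the lowest was *Bag3*, a nucleotide exchange factor for HSP70 in selective autophagy, with -0.31 ± 0.08 (0.131 by edgeR and 0.0436 by DESeq2). The other genes that DESeq2 called were *Dnajb6* in Del/+ against wt, and *Clpb* and *Fkbp5* in Del/+ against Dup/+, and among the 4 groups it called *Hspa4l*, *Unc45a*, *Fkbp5*, *Bag3* and *Hsf1*. *Hsf1*, the master factor of the heat shock response, had -0.18 ± 0.07 on the log2 scale for Del/+ and -0.14 ± 0.06 for Dup/+, and its adjusted p by edgeR were 0.154 and 0.533. These 7 genes were named after their values were seen, and *Hsf1* and *Bag3* were highest in wt replicate 1, at 21.0 and 14.5 CPM.

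The most variable genes of the lists within groups were *Hspb2*, with an SD of 0.47 on the log2 scale, *Hsf4* with 0.30 and *Sdf2l1* with 0.28. *Hspb2*, a small heat shock protein of muscle, was counted at 5 to 35 reads, so that its spread is at a depth where counting error is large. *Sdf2l1* ranged from 3.41 to 8.06 CPM and its highest library was wt replicate 1. By the same measure *Hsp90ab1* (0.06), *Dnajb1* (0.06), *Hsph1* (0.07) and *Hspd1* (0.08) were the steadiest members, *Hspe1* had 0.14, *Hspa5* 0.17, *Hspb1* 0.21 and *Hspa1b* 0.34.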

How the data were processed

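RNA of the hippocampus was sequenced from 19 male rats. The authors made stranded total RNA libraries (the protocol describes removal of rRNA, whereas the molecule field gives polyA RNA, which was not settled here) and sequenced single-end reads. Alignment was by HISAT2 to rn6, and HTSeq counted reads over Ensembl genes. The deposited values are raw counts per gene, 1 file per library, with 32623 genes and 5 summary lines. The strand and overlap settings of the counting were not given in the sources used here. The summary lines, multi-mapped reads (40.1% to 76.3% of a library) among them, stayed out of library sizes and tests.

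Groups and replicate numbers came from the description field. Of 24345 genes with a read, 15440 passed filterByExpr. Counts were scaled by TMM and tested with edgeR 4.0.16 (R 4.3.3), all 19 libraries in 1 robust quasi-likelihood fit with a mean per group, Benjamini-Hochberg adjusted over all genes tested, with a threshold of 0.05. The prior count was 2, SE were taken from the F statistic, and intervals are at 95%. The script was tested on simulated data. Replicates were separate rats as far as the labels tell, and 37 pairs within groups differed by more than sampling noise (mean chi-square per gene 3.52 to 59.3). Precision follows the reads per gene and library, from 0 for *Hsp90aa1* to 45811 for *Hsp90ab1*.

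Alternatives were RLE factors, library size alone, no filter, only the groups compared, wt replicate 5 as Dup/+, the multi-mapped share as covariate, the replicate number as block, DESeq2 1.42.0, and leaving out each library. The members and gene lists were chosen with earlier results of these data known. Named were the 10 members, called genes of the lists, the 5 genes most correlated with *Hspa1b*, *Hspa5* and *Hspd1*, and the 3 most variable list genes. No gene lengths were used, so levels are not compared between genes. Promoters came from RefSeq (GRCr8).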

Additional observations from a re-analysis of the deposited data

Results flagged for a closer look

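Of 40 groups of libraries examined (10 members in 4 genotypes), 7 held a library far from the others by Dixon's criterion at the 95% level, where chance alone flags about 1 in 20 groups. *Hspa5* in wt replicate 1 was at 514 CPM, and the next wt library at 359. *Hsp90ab1* in Dup/+ replicate 1 was at 1209 CPM, the next at 1117. *Hsph1* in Del/Dup replicate 4 was at 349.2 CPM, below the next at 358.5, in a group whose whole range was narrow. The other 4 belong to the 2 genes with separate levels. *Hspa8* was at 11.1 CPM in wt replicate 6 (next 4.45), at 2.97 in Del/+ replicate 3 (next 0.727) and at 16.9 in Dup/+ replicate 5 (next 1.27). *Hsp90aa1* was at 10.8 CPM in Dup/+ replicate 4, the only library of that group above 1 read.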

How the results depend on the processing

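The count of members called stayed at 0 in every comparison under all settings run, and the median r of the 45 pairs of members, those with *Hspa8* and *Hsp90aa1* and their separate levels included, was 0.13, between 0.03 (without Del/+ replicate 4) and 0.20 (without wt replicate 1) when 1 library was left out. Of 1079 log2 fold changes of members under alternatives, 1035 had the sign of the main fit and 44 the opposite sign, and none was called; the cause of the reversals was not tested. With the replicate number as a block, *Hspa8* was 0.45 in Del/+, and *Hspa5* was 0.011 in Del/Dup and -0.0043 in Del/+ against Dup/+. With library size alone, *Hsp90ab1* was 0.0067 and *Hspd1* 0.0061 in Dup/+. With the multi-mapped share as covariate, *Hspd1* was 0.0070 in Dup/+ and 0.014 in Del/Dup, *Hspb1* was -0.21 and *Hspe1* -0.14 in Del/Dup, and *Hspe1* was -0.15 in Del/+ against Dup/+. *Hspb1* in Del/+ against Dup/+ was 0.0061 without the filter and 0.031 with wt replicate 5 as Dup/+. Ranges over leaving out 1 library that crossed 0 were, in Del/+ against wt, -0.21 to 0.10 for *Hspb1* and -0.12 to 0.070 for *Hspa5*. In Dup/+ against wt they were -0.24 to 0.027 for *Hspa1b*, -0.034 to 0.024 for *Hsph1*, -1.73 to 1.48 for *Hspa8*, -0.15 to 0.037 for *Hspa5*, -0.031 to 0.021 for *Hsp90ab1* and -0.029 to 0.025 for *Hspd1*. In Del/Dup against wt they were -0.047 to 0.020 for *Dnajb1*, -0.098 to 0.098 for *Hspa5*, -0.44 to 0.81 for *Hsp90aa1* and -0.095 to 0.0031 for *Hspd1*. In Del/+ against Dup/+ they were -0.14 to 0.078 for *Hspa1b*, -0.15 to 0.16 for *Hspb1*, -2.57 to 0.53 for *Hspa8*, -0.0076 to 0.067 for *Hspa5* and -0.027 to 0.12 for *Hspe1*.

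The count over all genes moved by more than 1.5 times. In Del/+ against wt it was 119, but 191 with only those groups, 75 with the block, 655 by DESeq2 and 46 to 334 with 1 library left out. In Dup/+ it was 42, but 12 with wt replicate 5 as Dup/+, 80 by DESeq2 and 27 to 43. In Del/Dup it was 13, but 7 with library size alone, 2 with only those groups, 47 with wt replicate 5 as Dup/+, 5 with the covariate, 183 by DESeq2 and 1 to 203. In Del/+ against Dup/+ it was 113, but 267 by DESeq2 and 57 to 193. For the 4 groups it was 131, but 85 with the covariate, 69 with the block, 705 by DESeq2 and 66 to 400. The replicate numbers did not pair the libraries: 24 pairs with the same number in other groups had r of -0.25 to 0.15, and 0 libraries correlated best with their own number. The block changed no call of a member. The members with the fewest reads were *Hsp90aa1*, *Hspa8*, *Hspa1b* and *Hspb1*, with 0, 11, 12 and 43 in their lowest libraries. The reads of *Hsp90aa1* did not follow library depth. It had 2 in wt replicate 1, with 38760645 assigned reads in all, and 259 in Del/Dup replicate 3, with 19464204.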
